A study of Mus musculus with 9 samples.

Results

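Gene expression in HPC7 cells carrying mutant Snai1, a form that binds Lsd1 poorly, was compared with that in cells carrying empty vector. The comparison used the 3 libraries of each of these groups, 6 of the 9 libraries in the study, fitted without the others. All 12151 of the 27179 counted genes that passed a filter on low counts were members. The comparison asks which genes still changed when this contact was impaired, and how large a change the 6 libraries could have missed.

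HPC7 is an established mouse line of blood progenitors that needs stem cell factor to grow. Cells were kept in RPMI medium with mSCF at 100 ng/ml, FCS at 10% and 2-mercaptoethanol at 0.05 mM. Every group was infected with the same retrovirus, MSCV-IRES-GFP, so the controls also carried virus and green fluorescent protein. The empty vector held no cDNA, and the other vectors held wild-type Snai1 or the mutant with alanine in place of phenylalanine at residue 5 (F5A). Cells were sorted for GFP 1 week after infection, and poly(A) RNA was sequenced from a stranded kit. Snai1 cDNA was thus expressed from a viral vector, a Snai1 count also holds any reads from the cell's own gene, and Snai1 protein and its contact with Lsd1 were not measured here. The labels do not say whether the 3 libraries of a group came from separate infections or cultures, so the spread that the p-values are set against is that of these libraries and may be technical.

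Snai1 is a zinc finger repressor that binds E-box motifs and is best known for silencing epithelial genes during the epithelial-mesenchymal transition. Its extreme amino terminus, the SNAG domain, resembles a histone H3 tail and docks into the active site of Lsd1 (Kdm1a), a histone demethylase that works with CoREST and histone deacetylases. The related SNAG proteins Gfi1 and Gfi1b use the same contact to repress genes in blood progenitors. The substitution lies in this domain, at the reference codon set in capitals below. The reference sequence is the first 60 bases of the Snai1 coding sequence from GENCODE M21, at GRCm38 chr2:167538290-167538349 on the plus strand.
Snai1 coding start: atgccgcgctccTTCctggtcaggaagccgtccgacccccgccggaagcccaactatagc
The capitals mark codon 5, TTC, which encodes the phenylalanine. The vectors' own sequences were not used here, and counts per gene do not tell the wild-type from the mutant transcript.

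Library totals ran from 18332451 to 20194632 counts, and a floor of 3 counts lay between 0.146 and 0.162 CPM (the counts of a gene relative to the TMM-scaled library size). The marker sums that follow are set against the unscaled library totals instead. The libraries held the marker genes of blood progenitors, with 12 markers summing to 8798 to 9119 CPM in the controls and 8817 to 9255 CPM with the mutant. Macrophage markers (5 genes, none at 0) summed to 12.7 to 14.95 CPM and 14.5 to 16.2 CPM, and neutrophil markers (6 genes, with Ngp and S100a8 at 0) to 1.29 to 1.86 CPM and 1.07 to 2.40 CPM. Erythroid markers (5 genes, both globins at 0) summed to 15.7 to 17.6 CPM and 16.9 to 20.03 CPM, and epithelial markers (4 genes, Krt8 and Krt18 at 0) stayed at or under 0.207 CPM. Lymphoid markers (5 genes, Cd3e at 0) summed to 1.29 to 1.64 CPM and 1.328 to 1.77 CPM, and fibroblast markers (6 genes, 4 at 0) stayed at or under 0.0521 CPM. Endothelial markers (4 genes) summed to 413 to 452 CPM and 418 to 447 CPM, nearly all of it Pecam1, which blood progenitors also express.

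Single libraries differed from the others of their group. In empty vector replicate 1, 3.62% of all counts fell in 1 gene without a symbol (701384 counts, against 22917 to 53695 in the other 5 libraries), and Lars2 held 94658 counts against 15833 to 19888. Mutant replicate 2 lay nearest to the controls on the first principal component of log2 CPM (32.2% of the variance), at 3.63, with the other mutant libraries at 11 and 13.7 and the controls at -5.13, -7.35 and -15.9. It also had the lowest mutant Snai1 level. Empty vector replicate 3 was the control furthest from the mutant libraries on this component. On the second component (25.8% of the variance) empty vector replicate 1 was at 19.5, with the other libraries between -10.2 and -0.06. The values without single libraries stand beside the results that rest on them.

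Snai1 itself was at 1.08, 0.731 and 0.703 CPM with empty vector and at 479, 419 and 501 CPM with the mutant. All 3 mutant libraries were high and all 3 controls were low, as their labels say. The log2 fold change was 9.12 (SE 0.12, edgeR quasi-likelihood test, Benjamini-Hochberg adjusted p = 9.70e-14). Wild-type Snai1 was expressed at a level not shown to differ from that of the mutant, with a log2 difference of 0.09 and a 95% interval from -0.18 to 0.35 (edgeR adjusted p = 0.568). Kdm1a, the gene for Lsd1, was at 202, 203 and 203 CPM in the controls and at 200, 200 and 204 CPM with the mutant. Its log2 fold change was -0.01, and its interval for the ratio of mutant to control ran from 0.939 to 1.05.

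Of the 12151 genes tested, 13 rose with the mutant (0.107% of genes tested) and 17 fell (0.14%), 30 in all (0.247%), at an edgeR adjusted p under 0.05. Besides Snai1, 12 genes rose and 17 fell. Among these 29, 1 changed by at least 2-fold and 7 changed by at least 1.5-fold, namely Chrnb1 upward and 6 genes downward. The other changes were small, 18 of them under 1.33-fold. In all 30 called genes the 3 mutant libraries lay wholly above or wholly below the 3 controls, as they did in 17.8% of all tested genes, a measure of the same libraries as the test. With 3 libraries in each group the smallest two-sided p of an exact permutation test is 0.1, so single genes rest on the edgeR fit across all genes. At an unadjusted p under 0.05, 724 genes were higher (5.96%) and 839 lower (6.9%), 1563 together. If no gene changed, 608 would be expected. This excess depended on the libraries fitted. The count was 603 of 12484 tested genes in a fit of all 9 libraries, with no excess in that fit. The wild-type libraries also set the spread there, so that fit cannot show whether the excess is absent. The count was 889 of 12271 without mutant replicate 1 and 2279 of 12269 without mutant replicate 2.

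The number called depended on single libraries and on the estimate of spread. Without empty vector replicate 1 the fit called 15 higher and 17 lower, of which 21 were among the 30. Without mutant replicate 2 it called 87 higher and 155 lower, which included all 30. Without mutant replicate 1 it called 4 higher and 2 lower, all of them among the 30. It called 7 and 6 without empty vector replicate 3, 9 and 13 without empty vector replicate 2, and 9 and 9 without mutant replicate 3. A fit of all 9 libraries called Snai1 alone, with a common coefficient of biological variation of 10.7% against 6.63% in the 6 libraries.

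**Figure D1:**
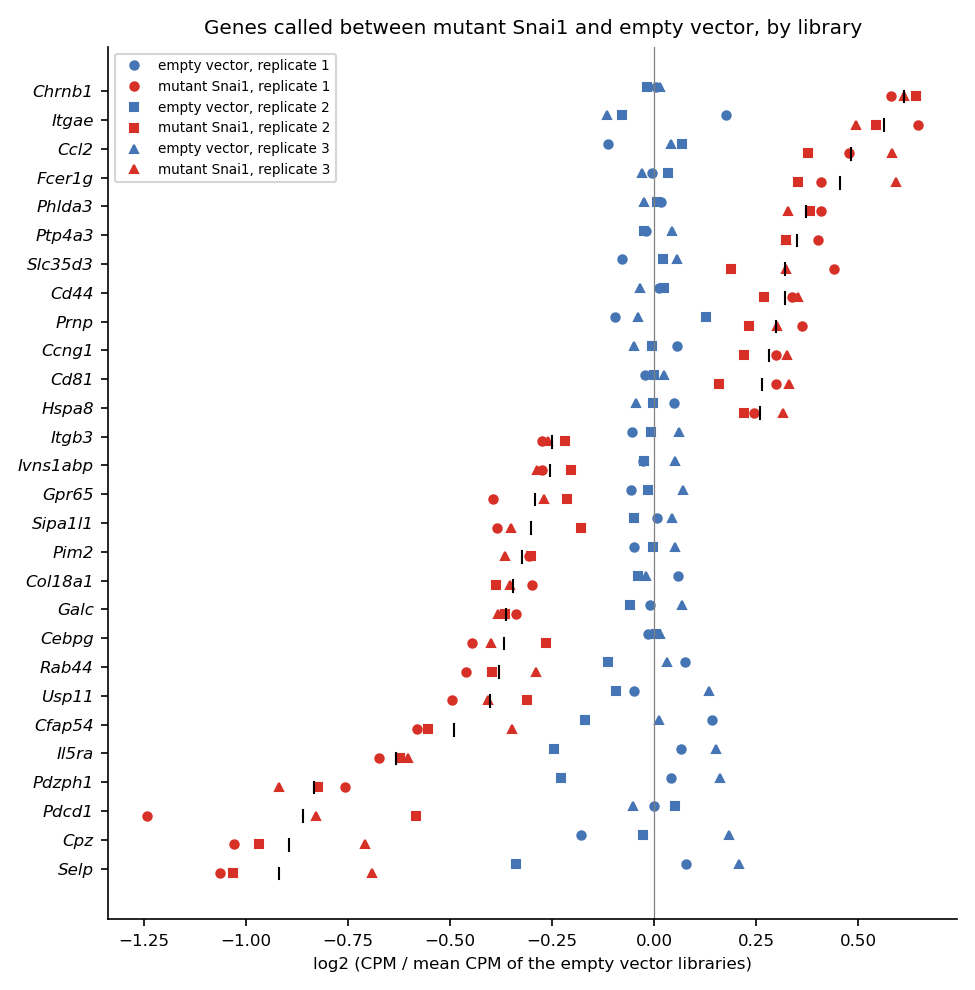
Level of 28 of the 29 called genes besides Snai1 in each of the 6 libraries, as log2 of CPM over the mean of the empty vector libraries (blue, empty vector; red, mutant Snai1; the marker shape gives the replicate and the black tick the mutant mean). The groups do not overlap for any of these genes.

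Of the called genes besides Snai1, Chrnb1 had the largest rise. It encodes the beta subunit of the muscle acetylcholine receptor (chromosome 11, 69784036 to 69795966 in GRCm38.p6). It was at 36.0, 35.5 and 36.3 CPM with empty vector and at 53.7, 56.0 and 54.9 CPM with the mutant. The groups were far apart for the spread within them, and Chrnb1 rose by 0.61 on the log2 scale (SE 0.06, edgeR adjusted p = 1.16e-04). Wild-type Snai1 moved the same gene the other way, with a log2 fold change against the same controls of -4.08 (SE 0.16, edgeR adjusted p = 6.72e-06). The difference between wild type and mutant was itself past the threshold, at -4.70 (95% interval -5.05 to -4.34, edgeR adjusted p = 3.58e-06).

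The called genes are described by what each is known to do. This order was chosen after the calls were seen, and no group of them was tested. Selp, which encodes P-selectin, an adhesion receptor of platelets and vessel walls, was at 6.63, 4.97 and 7.25 CPM in the controls and at 3.01, 3.08 and 3.89 CPM with the mutant. It fell by 0.91 (SE 0.17, edgeR adjusted p = 0.0390), and it overlaps the predicted gene Gm16548. Itgb3, the platelet integrin beta 3, fell by 0.25 from 582 ± 23.4 to 489 ± 10.0 CPM (SD, n = 3, edgeR adjusted p = 0.0392).

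Cd44, the hyaluronan receptor, was at 151, 152 and 146 CPM with empty vector and at 189, 180 and 191 CPM with the mutant, a log2 rise of 0.32 (SE 0.04, edgeR adjusted p = 0.00374). Itgae, the integrin alpha chain that pairs with integrin beta 7 and binds E-cadherin, was at 10.4, 8.72 and 8.49 CPM and at 14.4, 13.4 and 13.0 CPM, a log2 rise of 0.56 (SE 0.10, edgeR adjusted p = 0.0389). It overlaps Haspin, so some of its reads may belong to that gene. Cd81, a tetraspanin that also overlaps the gene R74862, rose by 0.26 (SE 0.05, edgeR adjusted p = 0.0348), with mutant replicate 2 nearest to the controls. Col18a1, which encodes a basement membrane collagen, fell by 0.35 from 34.2 ± 1.24 to 26.9 ± 0.820 CPM (SD, n = 3, edgeR adjusted p = 0.0447).

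Among these genes the call of Chrnb1 held whichever of the 6 libraries was left out, with an edgeR adjusted p of at most 0.00305. The call of Cd44 was lost without mutant replicate 1 (adjusted p = 0.0551). That of Selp was lost without empty vector replicate 1 (0.0966), empty vector replicate 3 (0.143) or mutant replicate 1 (0.241). Itgae and Itgb3 kept their calls without empty vector replicate 1 (0.0231 and 0.0321) and without mutant replicate 2 (0.0285 and 0.0196), and each lost them without any 1 of the other 4 libraries. Cd81 and Col18a1 kept theirs without mutant replicate 2 alone (0.00245 and 0.0386). No called gene changed its direction in any of these fits.

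Ccl2, the chemokine that draws monocytes, was at 58.2, 66.0 and 64.8 CPM with empty vector and at 87.7, 81.8 and 94.4 CPM with the mutant. It rose by 0.48 on the log2 scale (SE 0.06, edgeR adjusted p = 0.00374). Fcer1g, the signalling chain shared by several Fc receptors, was at 74.1, 76.2 and 72.9 CPM and at 98.7, 94.9 and 112 CPM, a log2 rise of 0.45 (SE 0.06, edgeR adjusted p = 0.00374). Both calls held in all 6 fits that left a library out, with adjusted p-values of at most 0.0410 and 0.0264.

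Il5ra, the receptor chain for the eosinophil cytokine interleukin-5, was at 12.02, 9.69 and 12.8 CPM in the controls and at 7.21, 7.46 and 7.57 CPM with the mutant. It fell by 0.63 (SE 0.12, edgeR adjusted p = 0.0390), and all 3 mutant libraries lay below the lowest control, empty vector replicate 2. Pdcd1, the inhibitory receptor PD-1, was at 8.46, 8.77 and 8.17 CPM and at 3.58, 5.65 and 4.77 CPM, a log2 change of -0.86 (SE 0.15, edgeR adjusted p = 0.0211). Gpr65, a proton-sensing receptor of leukocytes, fell by 0.29 from 153 ± 6.95 to 125 ± 7.91 CPM (SD, n = 3, edgeR adjusted p = 0.0390). The call of Il5ra held without empty vector replicate 2 and without mutant replicate 2 (adjusted p = 0.0232 and 0.0311), and those of Pdcd1 and Gpr65 without empty vector replicate 1 (0.0456 and 0.0414) and without mutant replicate 2 (0.00644 and 0.0127). Without any 1 of the remaining libraries these 3 genes lost their calls.

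Cebpg, a leucine zipper factor that pairs with other C/EBP and ATF proteins, was at 286, 290 and 292 CPM with empty vector and at 212, 241 and 220 CPM with the mutant, with a log2 fold change of -0.37 (SE 0.05, edgeR adjusted p = 0.00374). Pim2, a survival kinase downstream of cytokine receptors, was at 142, 147 and 152 CPM and at 119, 119 and 114 CPM (log2 fold change -0.32, SE 0.05, edgeR adjusted p = 0.00659). Ptp4a3, the phosphatase PRL-3, rose by 0.35 from 104 ± 2.80 to 132 ± 4.14 CPM (SD, n = 3, edgeR adjusted p = 0.00397). The controls of Cebpg spanned 286 to 292 CPM, a narrower range than the 212 to 241 CPM of the mutant libraries. All 3 calls were lost without mutant replicate 1, at adjusted p-values of 0.0528 for Cebpg, 0.0578 for Pim2 and 0.0636 for Ptp4a3, and kept without any other library.

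Galc, the lysosomal enzyme that breaks down galactosylceramide, was at 138, 133 and 146 CPM with empty vector and at 110, 108 and 107 CPM with the mutant. It fell by 0.36 (SE 0.05, edgeR adjusted p = 0.00374), and the call held in all 6 fits that left a library out (adjusted p at most 0.0410). Pdzph1, at 11.1, 9.21 and 12.1 CPM against 6.38, 6.10 and 5.70 CPM, fell by 0.83 (edgeR adjusted p = 0.00673), and Rab44, a large Rab GTPase, fell by 0.38 (edgeR adjusted p = 0.00673). Both calls were lost without mutant replicate 1 (0.0528 and 0.0819). Cpz, a secreted carboxypeptidase, was at 6.36, 7.06 and 8.17 CPM and at 3.53, 3.68 and 4.41 CPM, a log2 change of -0.89 (edgeR adjusted p = 0.0151), with the call lost without empty vector replicate 2 (0.0535), empty vector replicate 3 (0.0801) or mutant replicate 1 (0.135).

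A further 6 called genes were Usp11, Sipa1l1, Ivns1abp, Cfap54, Slc35d3 and Prnp. Usp11, a deubiquitinase, fell by 0.40 on the log2 scale, Sipa1l1, a GTPase-activating protein for Rap, by 0.30, and Ivns1abp, an actin-binding kelch protein, by 0.25. Cfap54, a protein of motile cilia, fell by 0.49 and was the last gene inside the threshold (edgeR adjusted p = 0.0481), with Zmat3, Bhlhe40 and Rasgrp2 among the genes next outside it (0.0511 each). Slc35d3, a transporter needed for platelet dense granules, rose by 0.32, and Prnp, the prion protein, rose by 0.30. Without mutant replicate 1 the edgeR adjusted p was 0.158 for Usp11, 0.257 for Sipa1l1, 0.240 for Ivns1abp, 0.281 for Cfap54, 0.291 for Slc35d3 and 0.257 for Prnp. The call of Usp11 was also lost without empty vector replicate 3 (0.0790) or mutant replicate 3 (0.0750). Sipa1l1, Ivns1abp and Slc35d3 were called without mutant replicate 2 (0.00245, 0.00736 and 0.00683) and in none of the other 5 fits, and Cfap54 and Prnp were called without empty vector replicate 2 (0.0402 and 0.0191) or mutant replicate 2 (0.0428 and 0.0209) and in none of the other 4.

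**Figure D2:**
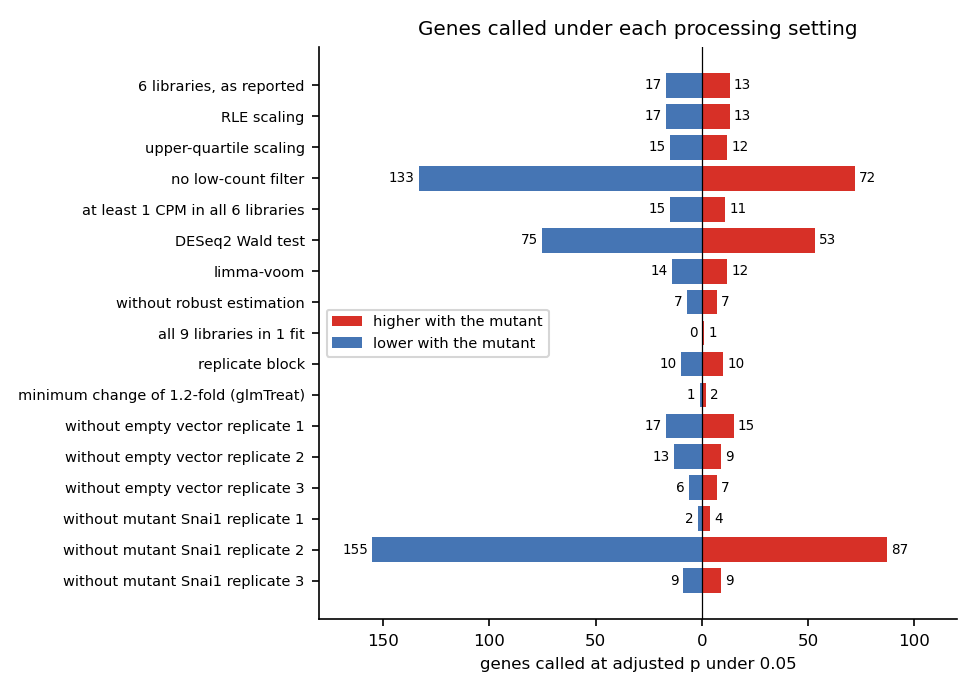
Number of genes called higher (red, to the right) and lower (blue, to the left) with mutant Snai1 at an adjusted p under 0.05, under each processing setting and with each library left out. The count runs from 1 gene in the fit of all 9 libraries to 87 higher and 155 lower without mutant replicate 2.

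The zinc fingers of Snai1, which the substitution does not touch, are known to bind the E-box CAGGTG. RefSeq promoter windows of GRCm38.p6, from 250 bases before to 50 bases after a start site, were searched for these 6 letters on both strands. The motif was in 20.2% of all windows of this length and in 20.2% of the tested genes that have a window. Of the called genes besides Snai1, 21 had a window and 5 of them held the motif (23.8%), namely Chrnb1 among 8 genes that rose and Galc, Pim2, Usp11 and Selp among 13 that fell. The share is close to that of all tested genes, and a match describes the letters only. The windows of Chrnb1, Galc and Pim2 are shown because these 3 genes have the smallest adjusted p of the 5, with the motif in capitals, each read 5′ to 3′ on the gene's own strand.
Chrnb1: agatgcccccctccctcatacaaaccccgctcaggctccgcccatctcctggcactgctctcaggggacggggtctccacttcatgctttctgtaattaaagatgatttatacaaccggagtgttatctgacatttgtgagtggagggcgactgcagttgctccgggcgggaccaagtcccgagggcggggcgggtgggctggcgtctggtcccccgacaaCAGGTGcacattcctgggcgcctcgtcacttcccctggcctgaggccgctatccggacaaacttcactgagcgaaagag
Galc: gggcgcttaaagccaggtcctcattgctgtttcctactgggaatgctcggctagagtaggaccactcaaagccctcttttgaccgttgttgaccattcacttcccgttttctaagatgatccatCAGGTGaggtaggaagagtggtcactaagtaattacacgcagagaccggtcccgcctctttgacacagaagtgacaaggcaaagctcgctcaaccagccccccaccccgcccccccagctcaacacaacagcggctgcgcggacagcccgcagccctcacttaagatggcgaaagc
Pim2: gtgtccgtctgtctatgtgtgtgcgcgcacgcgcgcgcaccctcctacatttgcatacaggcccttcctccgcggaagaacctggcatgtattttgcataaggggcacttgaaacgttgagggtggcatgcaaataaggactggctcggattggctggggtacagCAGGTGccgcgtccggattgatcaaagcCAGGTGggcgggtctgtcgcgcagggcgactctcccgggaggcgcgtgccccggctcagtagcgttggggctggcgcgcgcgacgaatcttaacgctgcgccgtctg
The windows lie at chr11:69795888-69796187 on the minus strand, chr12:98259410-98259709 on the minus strand and chrX:7878056-7878355 on the plus strand. The motif starts at -29 from the start site in Chrnb1 and at -126 in Galc, and Pim2 holds 2 copies.

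The same genes were then set beside wild-type Snai1, which was compared with the same 3 controls, so that an unusual control library moves both comparisons. With wild-type Snai1 2724 genes were called higher and 2577 lower of 12332 tested (43%), of which 1484 changed by at least 2-fold. A direct comparison of wild-type with mutant libraries called 5244 of 12340 genes (42.5%), and of the 29 genes called with the mutant 20 passed that test and 9 did not. That comparison in turn shares the mutant libraries with the one described here.

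Ccl2 was further from the controls with wild-type Snai1 than with the mutant, at a log2 fold change of 2.48 against 0.48, and the difference of 1.995 (95% interval 1.83 to 2.16) was past the threshold (edgeR adjusted p = 4.86e-06). Col18a1 was at -2.52 against -0.35, Il5ra at -2.01 against -0.63, and Cebpg at -1.25 against -0.37, each with a difference past the threshold (edgeR adjusted p = 3.92e-05, 5.70e-04 and 8.86e-05). In these 4 genes the mutant value was the nearer to the controls. Fcer1g was at 0.49 with the wild type and 0.45 with the mutant, and the interval of the difference ran from -0.18 to 0.24 (edgeR adjusted p = 0.785). Galc was at -0.48 and -0.36 (interval of the difference -0.25 to -0.01, edgeR adjusted p = 0.0857), and Cd44 at 0.48 and 0.32 (interval 0.02 to 0.29, edgeR adjusted p = 0.0585). These 3 were not shown to differ between the forms, and the intervals limit any difference to under 1.25-fold.

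Other genes had signs that differed between the forms. Itgae was at -2.003 with the wild type and 0.56 with the mutant (edgeR adjusted p of the difference 4.32e-05), and Slc35d3 at -1.43 and 0.32 (0.00268). Selp was at 2.56 and -0.91 (edgeR adjusted p of the difference 0.00195), and Itgb3 at 0.52 and -0.25 (8.88e-05). Cpz fell with the mutant by 0.89 and was at -0.24 with the wild type (edgeR adjusted p = 0.331), and it too differed between the forms (0.0272). Rab44, Cfap54 and Pim2 were not shown to differ, but their intervals were wide, from -1.61 to 1.08 for Rab44.

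**Figure D3:**
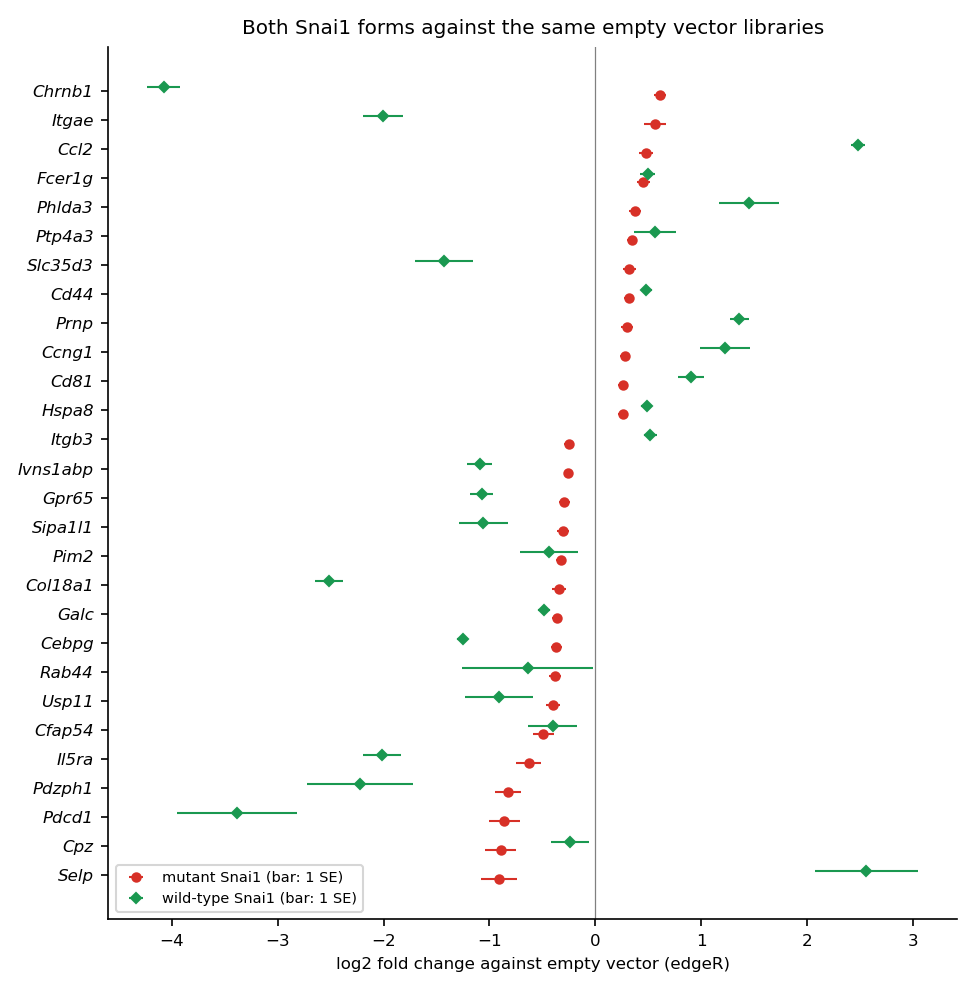
Log2 fold change against the same 3 empty vector libraries for 28 of the 29 called genes besides Snai1, with mutant Snai1 (red circles) and wild-type Snai1 (green diamonds), bars giving 1 SE. The mutant values lie between -0.91 and 0.61, and the wild-type values reach -4.08 for Chrnb1 and 2.56 for Selp.

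Among named genes averaging 1 CPM or more over the empty vector and wild-type libraries, the 8 with the largest fall with wild-type Snai1 had mutant log2 fold changes between -0.44 and 0.42, none of them called by edgeR in the 6 libraries. Slain1, which encodes a microtubule-associated protein, had a log2 fold change of -5.11 with the wild type, and was at 22.5, 21.7 and 22.1 CPM with empty vector and 22.8, 19.96 and 21.7 CPM with the mutant. The mutant fold change was -0.04, with an interval from -0.21 to 0.12. Tjp3, a tight junction protein, was at -4.80 and 0.04 (interval -0.16 to 0.25), and Prss57, a granule protease, at -4.61 and 0.10 (interval -0.22 to 0.42). Ccr9, a homing receptor, was at -6.22 and 0.42, with mutant levels of 8.50, 7.61 and 10.9 CPM and control levels of 7.76, 5.89 and 6.49 CPM, which overlapped (edgeR adjusted p = 0.235). Rasgrp2, an activator of Rap in platelets and leukocytes, was at -4.45 with the wild type and -0.44 with the mutant, just outside the threshold (edgeR adjusted p = 0.0511), and DESeq2 called it (adjusted p = 0.00553).

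By the same rule, the 8 genes with the largest wild-type rise had too few counts in the controls and the mutant to be tested. Serpinb2, a plasminogen activator inhibitor, had 0 counts over the 3 empty vector libraries, 3 over the mutant libraries and 983 over the wild-type libraries. Mmp8, Prss23, Ly6c2 and Mmp27 had 0 counts in all 6 libraries, which allows a level of up to 0.0516 CPM over the unscaled total of the 3 mutant libraries. Fpr1 and F13a1 had 1 and 2 counts over the mutant libraries and 0 over the controls. Gas7, which encodes an actin-binding growth arrest protein, had 1, 0 and 0 counts with empty vector and 6, 6 and 3 with the mutant, a ratio of 14.95 with a 95% counting interval from 2.30 to 629, against 1092 counts over the wild-type libraries. PCR copies of 1 molecule are counted as separate reads, so such intervals and floors hold counting error alone.

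For genes that were not called, the interval of the fold change limits how large a change the libraries could have missed. Across all 12151 genes the median log2 fold change was -6.92e-04, and the 5th and 95th percentiles were -0.26 and 0.24. Of all tested genes, the called ones included, the 95% interval lay wholly within 2-fold either way for 95.8%, within 1.5-fold for 85.9% and within 1.25-fold for 68.3%. Each interval is for 1 gene and is not adjusted for the number of genes. It rests on the same spread as the p-values, which may be technical, so it may be too narrow for a biological effect. The limit depended on the level of expression. Of 2815 genes at 100 CPM or more, 94.3% were bounded within 1.25-fold, against 84.7% of the 6409 genes at 10 to 100 CPM, 9.10% of the 2264 at 1 to 10 CPM and 0 of the 663 below 1 CPM. In this lowest class 48.3% were bounded within 2-fold, and the median interval reached 1.67-fold to either side of the estimate.

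Of the 9224 genes at 10 CPM or more, 28 were not bounded within 2-fold, Snai1 among them. Egr1, an immediate-early transcription factor, was at 108, 79.2 and 82.6 CPM with empty vector and at 158, 165 and 319 CPM with the mutant. The groups did not overlap, mutant replicate 3 was far above the others, and the log2 fold change of 1.25 had an interval from 0.23 to 2.27 (edgeR adjusted p = 0.316). Others of the 28 were Lars2 and the mitochondrial ribosomal RNA genes mt-Rnr1 and mt-Rnr2, which were high in empty vector replicate 1 alone. Lars2 was at 5102 CPM in that library and at 804 and 856 CPM in the other controls. Car1, a carbonic anhydrase of red cells, was at 0.323, 0.146 and 0.270 CPM in the controls and 0.726, 0.756 and 0.830 CPM with the mutant. The level in empty vector replicate 2 was at that library's floor of 3 counts, 0.146 CPM, so the change rests on few reads. The log2 fold change of Car1 was 1.64, but its interval ran from 0.78 to 2.49 and it was not called (edgeR adjusted p = 0.0914).

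**Figure D4:**
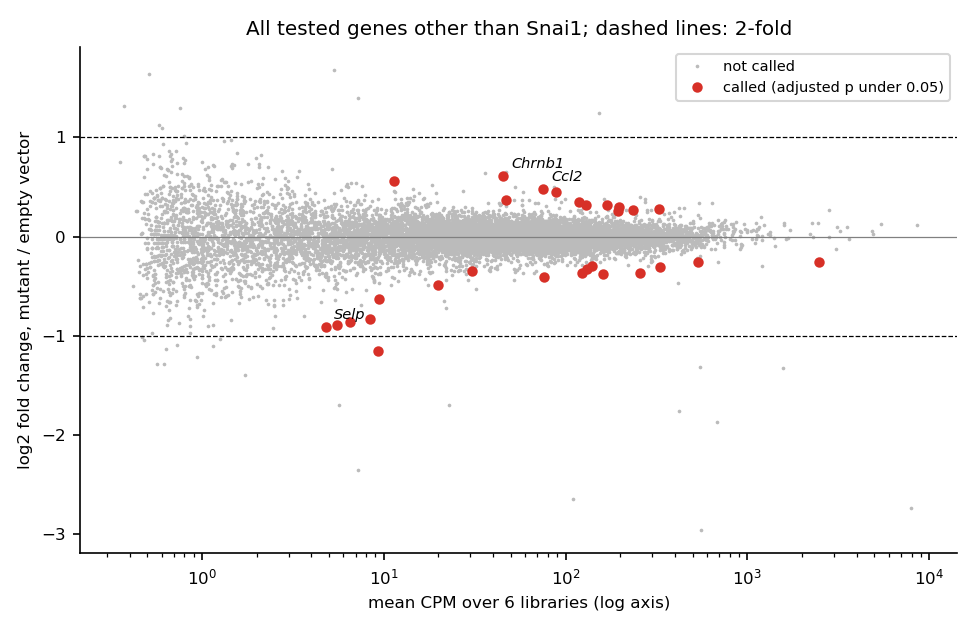
Log2 fold change of mutant over empty vector against mean CPM over the 6 libraries (log axis) for the tested genes besides Snai1, with called genes in red, the others in grey and dashed lines at 2-fold. The scatter narrows as the level rises, and 1 called gene lies beyond 2-fold.

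Gene lists were used to describe groups of related genes by counts and medians, beside 0.247% of all tested genes called and an overall median near 0. That share is from the edgeR fit, and DESeq2 called 53 higher and 75 lower of 12151 genes. The fit without a filter on low counts called 72 and 133 of 16933, and that without mutant replicate 2 called 87 and 155 of 12269. At an unadjusted p under 0.05 in the edgeR fit, 5.96% of all tested genes were higher and 6.9% lower. In the Lsd1 complex and its corepressors, 0 of 27 tested genes were called by edgeR, DESeq2 or limma-voom, 1 was lower at an unadjusted p under 0.05, and all 27 were bounded within 1.5-fold. Among 13 tested genes known as targets of Snai1 repression, 0 were called by any of these tools, 1 was higher at an unadjusted p under 0.05, and the median was 0.03, against -0.37 with the wild type. The 6 tested epithelial junction genes likewise had 0 calls by any of these tools and 0 at an unadjusted p under 0.05, with a median of 0.05 against -1.18. The junction genes F11r and Jup had log2 fold changes of 0.06 and 0.09, with the widest interval end at 0.20. Gfi1b, the SNAG repressor of red cell and megakaryocyte precursors, was at 71.4, 69.0 and 74.6 CPM with empty vector and at 64.1, 58.4 and 62.0 CPM with the mutant, without overlap (log2 fold change -0.22, edgeR adjusted p = 0.114).

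In the list of p53 targets and apoptosis genes 2 of 26 tested members rose, Phlda3 and Ccng1, and none fell. Of the 26, 23 had a positive log2 fold change, with a median of 0.13. At an unadjusted p under 0.05, 13 were higher, against 5.96% of all tested genes, and 1 was lower. Phlda3, a p53-induced inhibitor of Akt, was at 41.3, 41.0 and 40.1 CPM with empty vector and at 54.1, 53.1 and 51.2 CPM with the mutant, a log2 rise of 0.37 (SE 0.06, edgeR adjusted p = 0.00896). Ccng1, cyclin G1, was at 305, 292 and 284 CPM and at 361, 342 and 368 CPM, a log2 rise of 0.28 (SE 0.05, edgeR adjusted p = 0.0214). Zmat3, an RNA-binding p53 target, was at 115, 105 and 108 CPM and at 131, 130 and 129 CPM, and Cdkn1a, the cell cycle inhibitor p21, at 505, 481 and 458 CPM and at 590, 557 and 682 CPM. Neither was called (edgeR adjusted p = 0.0511 and 0.0588), although their groups did not overlap, and DESeq2 called both (adjusted p = 0.00557 and 3.02e-04).

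The list's median per library was -0.02 to 0.03 in the controls and 0.14, 0.11 and 0.17 in the mutant libraries, so its groups did not overlap. Wild-type Snai1 gave the list a median of 0.48, with 15 members higher and 1 lower. Phlda3 differed between the forms, at 1.45 with the wild type (edgeR adjusted p of the difference 0.0205), as did Ccng1 at 1.23 (0.0163). With DESeq2 4 members rose, against 53 of all 12151 tested genes, and 5 did without mutant replicate 2, against 87 of 12269. None was called without empty vector replicate 2, without mutant replicate 1 or in the fit of all 9 libraries. Phlda3 lost its call without empty vector replicate 2 (adjusted p = 0.0535) or mutant replicate 1 (0.107), and Ccng1 kept its call without empty vector replicate 1 (0.0231) and mutant replicate 2 (0.00779) and lost it without any 1 of the other 4 libraries.

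Genes of cholesterol synthesis lay slightly lower with the mutant. Of 32 tested, 31 had a negative log2 fold change, the median was -0.13, and 16 were lower at an unadjusted p under 0.05, against 6.9% of all tested genes. None was called by edgeR or limma-voom, and DESeq2 called 1 lower. Pmvk, an early kinase of the pathway, was at 24.7, 31.1 and 30.9 CPM with empty vector and at 23.8, 22.9 and 22.0 CPM with the mutant, and Hmgcs1, which makes HMG-CoA, at 542, 614 and 605 CPM and at 514, 540 and 488 CPM (edgeR adjusted p = 0.119 and 0.165). In both genes empty vector replicate 1 was the control nearest to the mutant. The list's median in that library was -0.11, beside 0.03 and 0.08 in the other controls and -0.11, -0.12 and -0.15 with the mutant. Without it the list's median was -0.18 and 2 genes were called lower, against 17 of all 12274 tested genes. With wild-type Snai1 the median was 0.52, with 21 higher and 1 lower.

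Immediate-early and stress genes had the highest list median, 0.30, but the libraries of each group were spread widely. The list's median was 0.22 in empty vector replicate 1, -0.09 and -0.11 in the other controls, and 0.18, 0.11 and 0.56 with the mutant, so the groups overlapped. Of 26 tested, 1 rose, Hspa8, a constitutive chaperone whose introns hold the small nucleolar RNAs Snord14c, Snord14d and Snord14e. It was at 184, 177 and 172 CPM with empty vector and at 211, 207 and 221 CPM with the mutant, a log2 rise of 0.26 (edgeR adjusted p = 0.0185). Its call held without empty vector replicate 1 (0.0321) and mutant replicate 2 (0.0102) and was lost without any 1 of the other 4 libraries. Of the 26 genes, 14 were bounded within 2-fold. Without empty vector replicate 1 the median of the list was 0.31, and without mutant replicate 3 it was 0.17.

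In the monocyte and macrophage list 1 of 19 tested genes rose, Fcer1g, and the median was 0.10, against 1.63 with the wild type. Ctss, a lysosomal protease of antigen-presenting cells, was at 5.44, 6.04 and 4.65 CPM with empty vector and at 8.14, 7.86 and 7.47 CPM with the mutant. The groups did not overlap, and the log2 fold change of 0.54 (interval 0.27 to 0.81) was not called (edgeR adjusted p = 0.0871). DESeq2 called 2 genes of the list higher, the fit without a filter on low counts 4 and the fit without mutant replicate 2 called 3, with 0 lower in each. Over all tested genes these settings called 53 of 12151, 72 of 16933 and 87 of 12269 higher. The summed macrophage markers given above overlapped between the groups. Of 33 adhesion and homing genes Cd44 and Cd81 rose and 1 gene fell, and of 21 megakaryocyte and platelet genes Itgb3 and Selp fell. In the latter list other settings called genes in both directions, with 2 higher and 2 lower by DESeq2, 2 and 4 without a filter on low counts, and 2 and 3 without mutant replicate 2. One of those higher was Gp1ba, a subunit of the platelet receptor for von Willebrand factor (log2 fold change 0.44, edgeR adjusted p = 0.0588, DESeq2 adjusted p = 0.0248). In each of the mast cell, myeloid factor, cytokine receptor, unfolded protein and mesenchymal lists 1 or 2 genes were called, all named above (Fcer1g and Il5ra, Cebpg, Pim2, Cebpg again, and Cd44). Fewer cells of a type and less RNA per cell cannot be told apart in these bulk libraries.

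Other lists held genes near the threshold that did not pass it. Of 41 cell cycle genes 0 were called by edgeR or limma-voom and 3 rose with DESeq2, against 53 of all 12151 tested genes. At an unadjusted p under 0.05, 10 were higher and 1 was lower, against 5.96% and 6.9% of all tested genes. The inhibitor Cdkn1a, described above with the p53 targets, is among the 3 and among the 10. Mcm4, a subunit of the replicative helicase, was at 315, 312 and 331 CPM with empty vector and at 379, 358 and 386 CPM with the mutant (log2 fold change 0.23, edgeR adjusted p = 0.0588). Of 28 stem and progenitor genes 0 were called by edgeR or limma-voom and 2 fell with DESeq2, against 75 of all 12151 tested genes. At an unadjusted p under 0.05, 5 were lower and 2 higher, against 6.9% and 5.96% of all tested genes. Lmo2, a bridging factor of the blood transcription complex, was at 66.1, 64.1 and 70.9 CPM and at 53.5, 54.3 and 57.8 CPM (log2 fold change -0.28, edgeR adjusted p = 0.0588). Bhlhe40, a circadian and myeloid repressor, was at 217, 224 and 221 CPM with empty vector and at 271, 269 and 330.5 CPM with the mutant, with replicate 3 the highest (log2 fold change 0.40, edgeR adjusted p = 0.0511). It was called with DESeq2 (adjusted p = 2.17e-05), with the replicate number as a block (0.0154), without a filter on low counts (0.00240), without mutant replicate 2 (0.0218) and without mutant replicate 3 (0.0219). Cebpa, the factor that drives granulocyte and monocyte fate, was at 7.22, 7.01 and 5.46 CPM and at 3.68, 5.54 and 4.46 CPM, with overlap between the groups (log2 fold change -0.53, interval -0.87 to -0.18, edgeR adjusted p = 0.185). Of the 32 lists, 21 held no gene called by edgeR, and 93 genes in all lay at an adjusted p between 0.05 and 0.1, 30 of them higher and 63 lower.

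**Figure D5:**
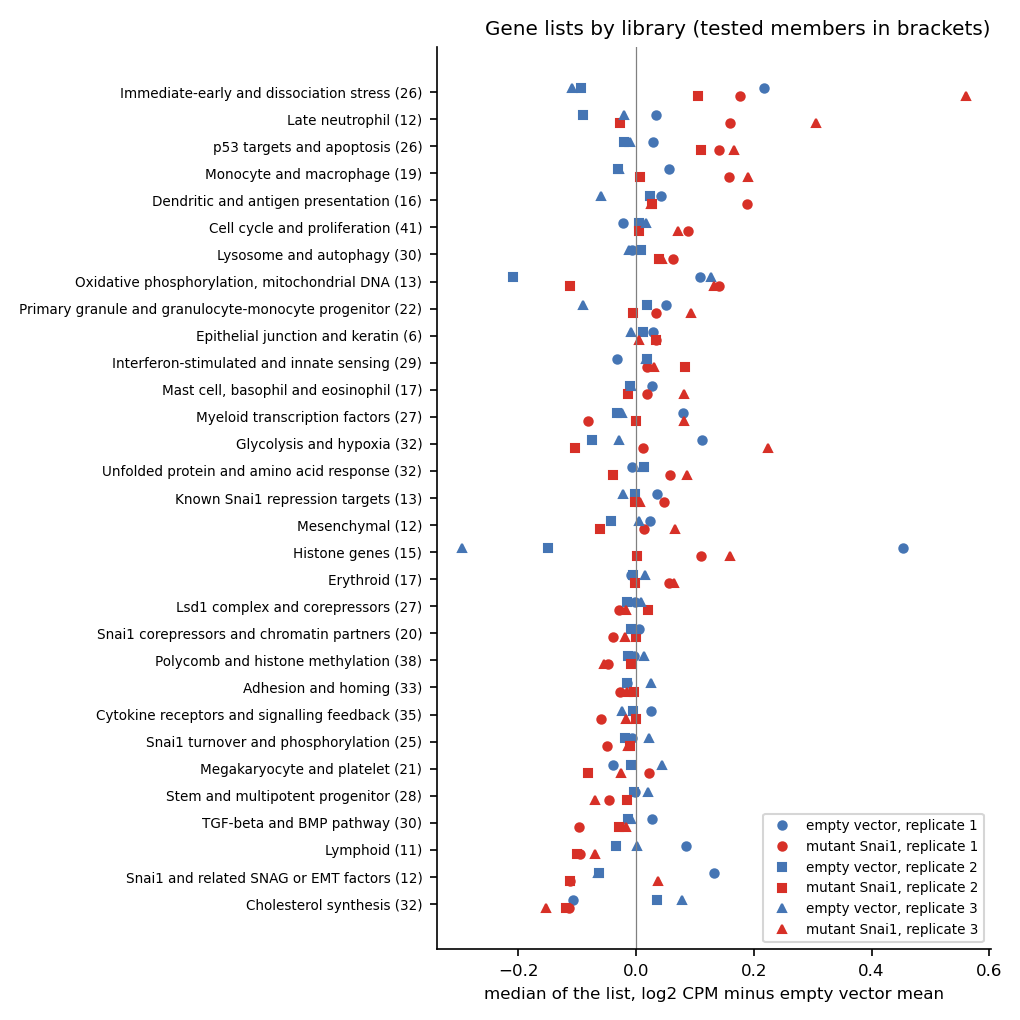
Median of each gene list in each library, as log2 CPM minus the mean of the empty vector libraries (blue, empty vector; red, mutant Snai1; the marker shape gives the replicate and the number in brackets the tested members). The list of p53 targets and apoptosis genes lies at -0.02 to 0.03 in the controls and at 0.11 to 0.17 with the mutant. The immediate-early and histone lists show how far the libraries of 1 group spread.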

How the data were processed

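The table the authors deposited gives a raw read count for every gene in every library, and per the submitters' processing notes it was made with featureCounts on build mm10 of the mouse genome. Versions named there are 3.15.0 for edgeR and 3.29.12 for limma. For the aligner, the annotation and the strand setting, nothing is given in the sources used here. A length in bases per gene was also deposited and was not used, and 0 columns belonged to other samples. Of 27179 identifiers, 25275 were matched to RefSeq GRCm38.p6, 18 more to GENCODE M21, and 1886 kept no symbol.

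Libraries were grouped by their titles. The 3 mutant and 3 empty vector libraries were fitted in R 4.3.3 with edgeR 4.0.16 (filterByExpr, TMM, robust quasi-likelihood test, no covariate). P-values were adjusted by the Benjamini-Hochberg method over all 12151 tested genes, and a gene was called at an adjusted p under 0.05. An interval is the log2 fold change plus or minus the 95% t quantile times its SE, and levels are CPM on TMM-scaled library sizes, except that marker sums and the limits for genes at 0 use unscaled totals. For list medians and principal components, log2 CPM was computed with 2 as the prior count. Wild type against empty vector and wild type against mutant were fitted in the same way, each on its own 6 libraries. The code was tested on simulated data.

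The genes named are Snai1 and Kdm1a, up to 15 called genes per direction, up to 3 genes per list with the smallest unadjusted p, and the 8 largest changes per direction of the wild-type comparison among called genes averaging 1 CPM or more and groups that do not overlap. Placeholder symbols are not named, and some genes are not reported here. Genes beyond this rule (Ivns1abp, Lars2, mt-Rnr1 and mt-Rnr2) were chosen after their values were seen. The members, the 32 lists (963 of 977 names matched) and the tests were chosen with earlier results of these data known. Alternatives were RLE and upper-quartile scaling, no or a stricter filter, DESeq2 1.42.0, limma-voom (limma 3.58.1), no robust estimation, all 9 libraries, a replicate block, a minimum change and leaving out each library. With 18332451 to 20194632 counts per library, the median SE of a log2 fold change was 0.0492 at 100 CPM or more and 0.346 under 1 CPM.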

Additional observations from a re-analysis of the deposited data

How the results depend on the processing

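The calls of 13 genes higher and 17 lower were the same with RLE scaling, and 27 of the 30 remained with upper-quartile scaling, 26 with at least 1 CPM required in all 6 libraries, where Snai1 itself was not tested because its control levels were too low, and 26 with limma-voom. Other settings moved the counts by more than 1.5 times. Without a filter on low counts 72 genes were called higher and 133 lower, and with DESeq2's Wald test 53 and 75, and both sets included all 30. Without robust estimation 7 and 7 genes were called, in a fit of all 9 libraries 1 and 0 (603 genes at an unadjusted p under 0.05), and against a minimum change of 1.2-fold 2 and 1. Over the fits that left out 1 library each, the genes called higher ran from 4 to 87 and those called lower from 2 to 155, the lowest without mutant replicate 1 and the highest without mutant replicate 2. The cause was not tested.

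With the replicate number as a block 10 genes were called higher and 10 lower, 18 of them among the 30. After removal of group means, the correlations between libraries of the same number were -0.00183, 0.0348 and -0.0773, so the numbers were not taken as pairs.

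The 95% interval lay within 2-fold either way for 95.8% of genes, and for 90.95% to 99.3% under the other settings with a filter on low counts, the minimum-change test aside, which gave no interval. It was 69.1% without that filter, since 16933 genes were then tested. No called gene changed sign under the 15 settings run for it. Snai1 kept its call in the 14 settings that tested it. A further 5 genes kept theirs in all 15 but the 9-library fit (Chrnb1, Ccl2, Galc and Fcer1g among them), where the edgeR adjusted p was 0.156 for Chrnb1, 0.151 for Ccl2 and Galc, and 0.317 for Fcer1g. Depth limits the genes under 1 CPM most.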
